A study of Mus musculus with 2 samples.

Results

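The genes described here are 40 mouse genes linked to Alzheimer's disease, either as genes at human risk loci or as parts of the machinery that makes, carries, takes up or degrades the amyloid peptide and tau. They were matched by symbol, and all 40 were found among the 55536 genes of the tables. The tissue is the adrenal gland of 2 adult female mice, 8 to 10 months old, profiled by total RNA-seq. The labels put both mice in 1 group, 5xFAD crossed with CAST, with 300 ng of RNA per library and no treated or control group. 5xFAD mice carry human transgenes, APP among them, with familial Alzheimer mutations, driven by the neuronal Thy1 promoter, and CAST is a wild-derived inbred strain. The labels do not say whether these 2 mice inherited the transgenes, and the human transcripts were not analysed here. The mice are numbered as biological replicates 1 and 2, have separate biosample entries and share 1 donor identifier. Any p-value below therefore measures the difference between these 2 libraries only.

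The amyloid peptide is cut from the amyloid precursor protein by beta-secretase and then gamma-secretase, while sheddases such as Adam17 cut the precursor within the peptide. Apolipoproteins carry lipid and bind the peptide, endocytic adaptors set where its precursor is sorted, and proteases such as neprilysin and insulin-degrading enzyme break it down. In the brain, microglia sense lipid and peptide through Trem2. The adrenal gland has a steroid-making cortex, rich in lipoprotein uptake, and a medulla of neuron-like chromaffin cells, with resident macrophages between them.

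The libraries held 36558609 (mouse 1) and 32192201 (mouse 2) expected counts in genes. A count of 0 allows a level of up to 0.0821 and 0.0932 CPM, a level scaled to the total count, for counting error only. Adrenal markers matched the label: all 6 cortex markers and all 6 chromaffin cell markers passed 1 TPM (a level scaled to transcript length and to the total of the table) in both mice, led by Star at 5127 and 5742 TPM and Chga at 751 and 703 TPM. All 4 kidney and all 4 liver markers stayed below 1 TPM in at least 1 mouse, with Slc12a1 and Umod at 0 counts in both. TPM is a share of all RNA in the table. Nuclear protein-coding genes summed to 294559 TPM in mouse 1 and 323270 in mouse 2, and the median gene had a log2 TPM ratio of 0.15, mouse 2 over mouse 1. Ratios between the mice are therefore given on TMM-normalised counts, for which the median over the 17666 genes tested was -0.00109.

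Of the 40 genes, 35 were at 1 TPM or more in both mice, 22 at 10 TPM or more and 4 at 100 TPM or more. The same level of 1 TPM was reached by 11913 of 22015 nuclear protein-coding genes, or 54.1%. The median over the 40 genes was 13.1 TPM. Among genes at 1 TPM or more in both mice, the median was 20.4 TPM for the 35 members and 10.3 TPM for all nuclear protein-coding genes. The 4 most abundant were 2 lysosomal proteases and 2 apolipoproteins: Ctsb, Ctsd, Apoe and Clu. The 5 below 1 TPM were Zcwpw1, Slc24a4, Epha1, Cass4 and Nme8.

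**Figure D1:**
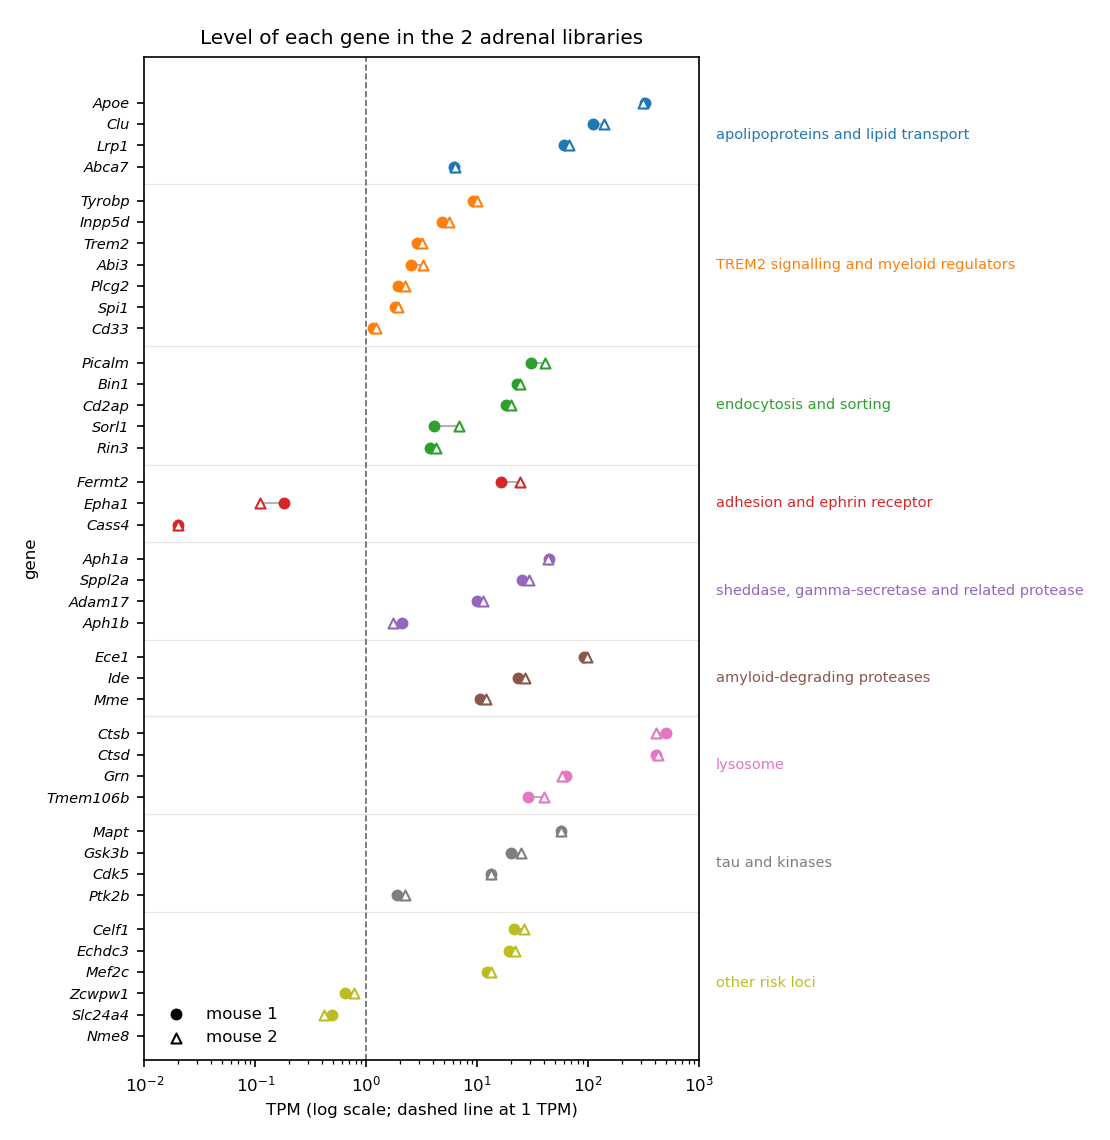
TPM of each of the 40 genes in mouse 1 (filled circles) and mouse 2 (open triangles) on a log axis, grouped by role; the dashed line marks 1 TPM. Ctsb, Ctsd and Apoe lie at or above 311 TPM, the 7 myeloid genes lie between 1.16 and 9.95 TPM, and Nme8, at 0 in both mice, is not drawn.

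Among the apolipoproteins and lipid transporters, Apoe, a carrier of cholesterol between cells, reached 323 and 311 TPM in mouse 1 and 2 (317 ± 8.80, SD, n = 2). It ranked 88 among nuclear protein-coding genes by mean TPM. Clu, the extracellular chaperone clusterin, was at 111 and 137 TPM (124 ± 19.0). Lrp1, an endocytic receptor for apolipoprotein E, was at 61.0 and 67.4 TPM. Abca7, a lipid transporter, was far below these at 6.21 and 6.36 TPM. Apoe thus stood above Clu in each mouse, and Clu above Lrp1, by gaps larger than the spread between the mice. A list of 10 lipoprotein receptors and efflux genes, which leaves these 4 out, had 8 genes at 1 TPM or more in both mice. Its highest were Apoc1, an apolipoprotein, at 112 and 144 TPM and Abca1, a cholesterol exporter, at 51.1 and 63.1 TPM.

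All 7 genes of Trem2 signalling and myeloid control were above 1 TPM and none reached 10 TPM. Tyrobp, the adaptor through which Trem2 signals, was highest at 9.12 and 9.95 TPM, from 176 and 153 expected counts. Inpp5d, a lipid phosphatase that restrains this signalling, was at 4.82 and 5.52 TPM. Trem2 was at 2.84 and 3.20 TPM, from 129 and 116 expected counts, about the level of Abi3, an actin regulator, at 2.55 and 3.23 TPM. Plcg2, a phospholipase downstream of the receptor, was at 1.92 and 2.25 TPM. The transcription factor Spi1 was at 1.82 and 1.95 TPM, and Cd33, an inhibitory sialic acid receptor, was lowest at 1.16 and 1.23 TPM. The levels of Trem2 and Abi3, and those of Plcg2 and Spi1, overlapped between mice.

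Macrophage markers were present beside these genes: 9 of 10 passed 1 TPM in both mice, with C1qa at 18.7 and 21.8 TPM and C1qb at 18.2 and 22.4 TPM, and a summed level of 74.9 and 88.1 TPM. Of 4 microglia markers only Tmem119 passed 1 TPM, at 2.75 and 3.51. P2ry12 had 30 and 27 expected counts and Sall1 had 3 and 0. In bulk tissue, fewer cells of a type and less RNA per cell cannot be told apart. In a list of 12 other myeloid receptor genes, 4 passed 1 TPM in both mice, led by Csf1r, the receptor for a macrophage growth factor, at 9.54 and 8.74 TPM and Ptpn6, a phosphatase of blood cells, at 4.47 and 5.27 TPM.

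The 2 leading Trem2 transcripts differ in their coding sequence at 1 splice acceptor, and both were assigned reads. They are printed to show the 55 bases that separate the forms, in capitals, with 30 coding bases on each side (mm10, chr17:48351162-48351775, plus strand, GENCODE M21 transcript sequences; the stretch is joined across an intron).
Trem2-202: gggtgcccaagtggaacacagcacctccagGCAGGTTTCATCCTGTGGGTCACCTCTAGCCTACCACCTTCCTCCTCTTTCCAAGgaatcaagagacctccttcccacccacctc
Trem2-201: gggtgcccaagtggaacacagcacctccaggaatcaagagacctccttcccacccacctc
Since 55 is not a multiple of 3, the forms are read in different frames after this point, and their coding sequences hold 227 (Trem2-201) and 249 (Trem2-202) codons. Trem2-201 took 69.2% of the gene's TPM in mouse 1 and 58.3% in mouse 2, from 79.0 and 60.6 expected counts. Trem2-202 took 27.1% and 38.2%, from 29.9 and 38.4 expected counts. The shorter coding form led in both mice and in both quantifications, but these shares rest on under 100 counts per form.

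The endocytosis and sorting genes lay between 3.73 and 40.3 TPM. Picalm, which helps assemble clathrin coats, was highest at 30.4 and 40.3 TPM (35.4 ± 6.99, SD, n = 2). Bin1, which senses and bends membranes, was at 22.57 and 24.01 TPM. Cd2ap, an actin and endocytosis adaptor, was at 18.1 and 20.0 TPM. Sorl1, a receptor that sorts the amyloid precursor back from endosomes, was at 4.04 and 6.83 TPM. Rin3, an exchange factor for early endosome Rab proteins, was at 3.73 and 4.21 TPM. All 16 genes of a list of clathrin, adaptor and retromer subunits passed 1 TPM in both mice, with Ap2m1 at 83.1 and 97.3 TPM and Cltc, the clathrin heavy chain, at 85.3 and 89.6 TPM. Sh3kbp1, a close relative of Cd2ap, was at 5.13 and 5.89 TPM, below Cd2ap in both mice.

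Picalm reads were divided between forms that hold or skip a cassette exon of 150 bases (mm10, chr7:90182219-90182368, plus strand). The exon is printed in capitals with 30 coding bases on each side, above the same junction without it (chr7:90177574-90189179, joined across introns), since the leading transcripts differ here.
Picalm-201: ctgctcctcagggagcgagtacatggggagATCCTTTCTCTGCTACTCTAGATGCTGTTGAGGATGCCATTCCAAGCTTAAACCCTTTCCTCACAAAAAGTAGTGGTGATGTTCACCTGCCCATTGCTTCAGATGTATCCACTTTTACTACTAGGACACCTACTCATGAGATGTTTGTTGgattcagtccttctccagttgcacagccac
Picalm-212: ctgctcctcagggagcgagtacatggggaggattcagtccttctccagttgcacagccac
The coding sequences hold 655 (Picalm-201) and 605 (Picalm-212) codons, so the exon keeps the frame. Transcripts with the exon took 35.3% and 31.0% of the TPM of all Picalm transcripts that hold it or span and skip it. The second quantification, made from the reads and a transcript index, gave 32.8% and 31.0%. In both mice and both quantifications the form without the exon was the larger. Further downstream, an exon of 24 bases (chr7:90194273-90194296) was held by transcripts with 75.9% and 79.3% of the TPM, and with 60.7% and 68.5% in the second quantification.

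Of the adhesion and ephrin genes, only Fermt2, an integrin activator, was well expressed, at 16.5 and 24.2 TPM (20.4 ± 5.47, SD, n = 2). From transcripts of 1000 bases or more Fermt2 was at 10.6 and 13.5 TPM, and the second quantification gave 14.7 and 18.9 TPM. Epha1, an ephrin receptor, had 23 and 11 expected counts, or 0.180 and 0.110 TPM. Cass4, a scaffold of focal adhesions, had 2 counts in each mouse. Those counts lie at or under the 3 counts that a count of 0 allows, so Cass4 was not detectable above that limit.

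Among the secretases, Aph1a, a subunit of gamma-secretase, was at 44.4 and 43.6 TPM. Sppl2a, an intramembrane protease of endosomes and lysosomes, was at 25.5 and 29.3 TPM, and the sheddase Adam17 was at 9.89 and 11.3 TPM. Aph1b, the alternative form of the Aph1a subunit, was at 2.11 and 1.74 TPM. All 11 genes of a list of the amyloid precursor, its family and other secretase genes passed 1 TPM in both mice. App was at 91.9 and 103 TPM and its relative Aplp2 at 200 and 244 TPM. Bace1, the beta-secretase, was at 9.32 and 9.31 TPM, and Psen2, a catalytic subunit of gamma-secretase, was at 12.4 and 11.1 TPM. Reads of a human APP transgene, if present, could be counted on the mouse gene, and this was not tested.

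Aph1b and its neighbour Aph1c are near-identical copies, so reads can be split between them by the authors' counting model and both values are uncertain. The coding sequences of Aph1b-201 and Aph1c-202 have 771 aligned bases, of which 29 differ (96.2% identity), with an unbroken identical run of 341 bases. The first 120 coding bases of each are shown because they hold 14 of the 29 differences, in capitals (mm10, minus strand, chr9:66794234-66795365 and chr9:66833323-66834598, each joined across an intron).
Aph1b-201: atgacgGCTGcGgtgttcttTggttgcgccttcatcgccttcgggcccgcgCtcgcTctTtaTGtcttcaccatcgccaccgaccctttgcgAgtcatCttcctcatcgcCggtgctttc
Aph1c-202: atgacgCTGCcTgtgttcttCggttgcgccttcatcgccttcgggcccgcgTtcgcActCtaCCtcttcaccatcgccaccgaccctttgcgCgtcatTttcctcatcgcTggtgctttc
Aph1b had 262.94 and 214.13 expected counts, with a deposited posterior SD of 5.37 and 4.34 counts. Aph1c had 281.06 and 222.87 expected counts with the same posterior SDs, and was at 3.07 TPM in both mice. Among the 40 genes only Aph1b, Aph1a, Ctsd and Cd2ap had a posterior SD above 0.

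All 3 amyloid-degrading proteases passed 10 TPM in both mice. Ece1, endothelin-converting enzyme, was highest at 91.9 and 96.4 TPM (94.2 ± 3.15, SD, n = 2), although the second quantification put it at 55.8 and 53.3 TPM. Ide, insulin-degrading enzyme, was at 23.4 and 26.9 TPM. Mme, neprilysin, was at 10.62 and 11.96 TPM. Of 12 other proteases and amyloid-binding proteins, 11 passed 1 TPM, led by Cst3, the protease inhibitor cystatin C, at 265 and 288 TPM and Pitrm1, a mitochondrial protease, at 55.7 and 53.9 TPM.

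The lysosomal genes were the most abundant set. Ctsb, the cysteine protease cathepsin B, was at 501 and 411 TPM, from 44085 and 29881 expected counts, and ranked 43 among nuclear protein-coding genes. Ctsd, the aspartic protease cathepsin D, was at 410 and 426 TPM and ranked 50. Grn, the precursor of the granulins, was at 63.3 and 58.5 TPM. Tmem106b, a lysosomal membrane protein, was at 28.4 and 39.9 TPM. All 15 genes of a list of other lysosomal enzymes and sorting proteins passed 1 TPM, with Psap, the precursor of the saposins, at 321 and 356 TPM and Lamp1, a membrane protein, at 124 and 143 TPM. Ctsb and Ctsd were above each of these 15 genes in both mice. The place of Ctsb rests on a short transcript: from transcripts of 1000 bases or more it was at 188 and 159 TPM.

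Mapt, which encodes tau, was at 57.3 and 56.8 TPM (57.0 ± 0.304, SD, n = 2), above the kinases that phosphorylate it. The deposited intervals of Mapt TPM ran from 54.6 to 60.2 in mouse 1 and from 53.7 to 59.8 in mouse 2. The small SD is therefore not the precision of either value. On normalised counts Mapt was lower in mouse 2, at a log2 ratio of -0.15. Gsk3b was at 20.3 and 24.8 TPM, Cdk5 at 13.3 and 13.4 TPM, and Ptk2b, a calcium-responsive tyrosine kinase, at 1.89 and 2.25 TPM. Cdk5r1 and Cdk5r2, the activators of Cdk5, were low at 0.980 and 1.57 TPM and at 1.74 and 1.63 TPM. Of 14 genes for other microtubule-associated proteins, tau kinases and a phosphatase, 13 passed 1 TPM in both mice. Ppp2r2a, a regulatory subunit of the main tau phosphatase, was highest at 66.6 and 77.9 TPM, followed by the kinase Gsk3a at 28.5 and 35.2 TPM. Map1b, another microtubule-associated protein, was at 23.8 and 23.6 TPM and Map2 at 6.87 and 6.67 TPM, both below Mapt.

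The other risk loci split into 3 expressed and 3 barely detected genes. Celf1, an RNA-binding protein, was at 21.4 and 26.2 TPM, Echdc3, an enoyl-CoA hydratase family member, at 19.1 and 21.8 TPM, and the transcription factor Mef2c at 12.3 and 13.3 TPM. Zcwpw1, a histone reader of meiosis, had 56 and 39 expected counts, and Slc24a4, a sodium, calcium and potassium exchanger, had 54 and 37. Nme8, a gene of cilia and sperm flagella, had 0 counts in both mice. In a further list of 12 genes at human risk loci, 9 passed 1 TPM, led by Snx1, a retromer-associated sorting nexin, at 33.8 and 34.6 TPM and Sharpin, a ubiquitin ligase subunit, at 23.0 and 26.8 TPM.

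The 2 mice were then compared gene by gene, with an exact two-sided binomial test on the rounded counts, adjusted by Benjamini-Hochberg over all 17666 genes that averaged 10 or more expected counts. Of the 40 genes, 38 were tested (Cass4 and Nme8 were too low). None was at least 2-fold apart between the mice, against 2.96% of all genes tested. That share was not matched for depth and is small for 38 genes, so nothing about the members is concluded from it. At an adjusted p under 0.05, 14 of 38 differed beyond counting error, or 36.8%, against 21.3% of all genes tested. The members were deeply counted, with a median of 1535 expected counts against 420 over all genes tested. Among those that averaged 1000 or more counts, 14 of 24 members passed, or 58.3%, against 37.1% of all such genes. Higher in mouse 2 were 6 (background 10.4%) and lower were 8 (background 11.0%). The median log2 ratio of the 38 was -0.02. No library replicates the comparison, so a difference between mice and one between preparations cannot be told apart.

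**Figure D2:**
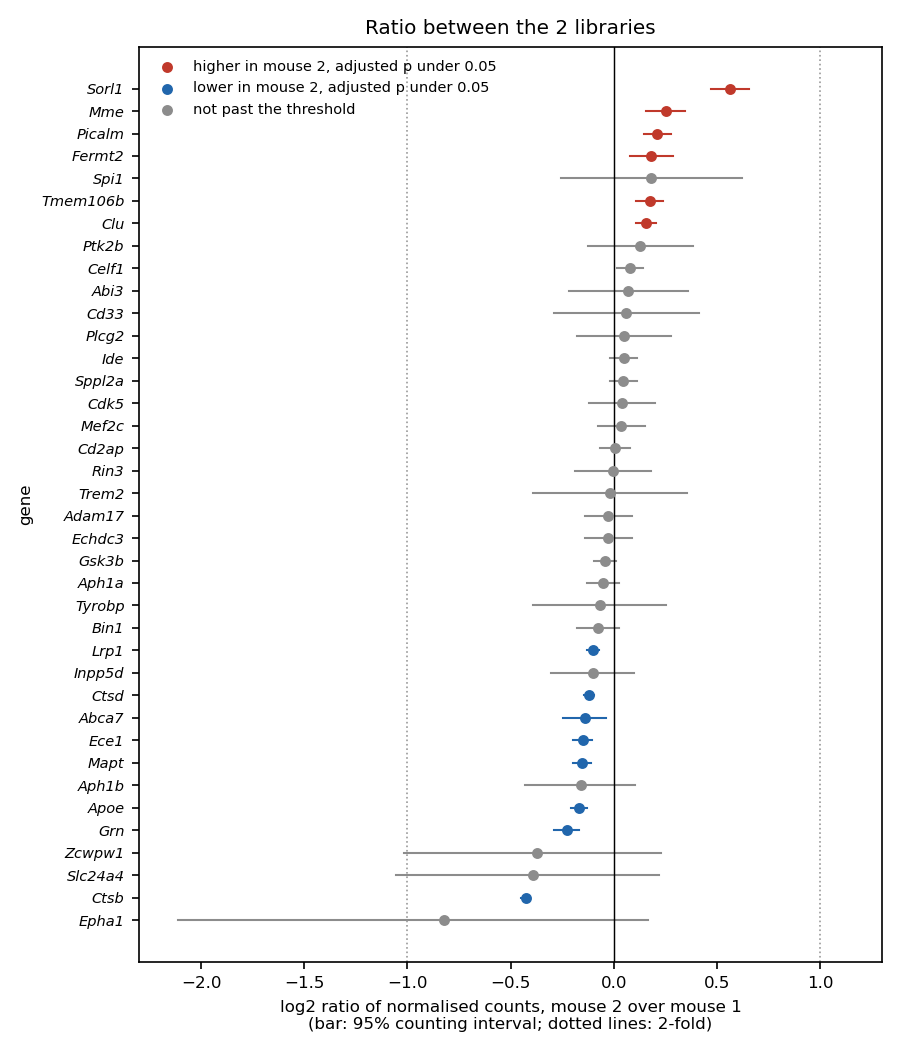
Log2 ratio of TMM-normalised counts, mouse 2 over mouse 1, for the 38 genes tested, in order of size; bars are 95% counting intervals and colour marks the binomial call over all genes. Sorl1 lies at the upper end at 0.56 and Ctsb has the most negative called ratio at -0.43, while the genes with wide bars, such as Epha1, have few counts.

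Sorl1 had the largest called ratio, with 1690 and 2275 expected counts and a log2 ratio of 0.56 (95% counting interval 0.47 to 0.66, binomial adjusted p = 1.85e-32). Mme, Picalm, Fermt2, Tmem106b and Clu were also higher in mouse 2, by log2 ratios of 0.25, 0.21, 0.18, 0.17 and 0.16. Sort1, a sorting receptor related to Sorl1, was outside the 40 genes and had a log2 ratio of 0.41 with 7.44 and 11.2 TPM. Markers of fat moved the same way: all 6 adipocyte markers were higher in mouse 2, 5 of them past the test, and their summed level was 1162 and 1850 TPM. Cfd was highest at 533 and 754 TPM, Fabp4 was at 329 and 567 TPM and Ucp1, of brown fat, at 141 and 276 TPM, and none of the 6 was at 0. All 5 endothelium markers and 9 of 10 macrophage markers were also higher in mouse 2 on normalised counts, none past the test. The part of these sets in the ratios of Sorl1 and the other 5 genes was not tested.

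Lower in mouse 2 were Ctsb, Grn, Apoe, Mapt, Ece1, Abca7, Ctsd and Lrp1. The Ctsb log2 ratio was -0.43 (95% counting interval -0.45 to -0.41), from 44085 and 29881 expected counts. The other 7 ranged from -0.23 for Grn to -0.10 for Lrp1. On the TPM scale, Abca7, Lrp1, Ece1 and Ctsd were instead higher in mouse 2, at log2 ratios of 0.03, 0.14, 0.07 and 0.05, below the 0.15 of the median gene on that scale. Abca7 had the weakest call (adjusted p = 0.0364 by the binomial test) and did not pass with total-count scaling (0.202) or in the second quantification (0.0521). All 6 chromaffin cell markers were lower in mouse 2 on normalised counts, 5 past the test, with a summed level of 2080 and 1952 TPM, and all 5 red blood cell markers were lower, with sums of 747 and 409 TPM, all 5 past the test. All 5 fibroblast and capsule markers were lower too, 3 of them past the test, with a median log2 ratio of -0.19 and sums of 87.9 and 90.1 TPM. Of 6 B and T cell markers, 2 passed as lower, among them Cd79a with 33 and 5 expected counts, and none of the 6 reached 1 TPM. Of 6 cortex markers, 2 passed as higher and 3 as lower. The part of these sets in the lower genes was not tested.

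The 7 myeloid genes gave no call, with log2 ratios between -0.10 and 0.18, and their intervals were wide: that of Trem2 ran from -0.39 to 0.35. None of the 10 macrophage markers passed either. Bin1, Cd2ap, Rin3, Adam17, Aph1a, Aph1b, Sppl2a, Ide, Gsk3b, Cdk5, Ptk2b, Mef2c and Echdc3 did not pass, with log2 ratios from -0.16 to 0.13. Epha1, Slc24a4 and Zcwpw1 had log2 ratios of -0.82, -0.39 and -0.37 from at most 56 counts per mouse, and did not pass. Celf1 was just outside the threshold (log2 ratio 0.08, binomial adjusted p = 0.0536) and passed with total-count scaling, with DESeq2 size factors and in the second quantification. In the related lists, the calls higher and lower in mouse 2 were 1 and 2 of 11 for the precursor and secretase list, 4 and 0 of 10 for lipoprotein receptors and 0 and 0 of 10 tested for myeloid receptors. They were 1 and 1 of 16 for clathrin and retromer and 0 and 5 of 12 for other proteases. For the lysosome they were 2 and 1 of 15, and for microtubule and tau kinase genes 4 and 0 of 14. For further risk loci they were 1 and 2 of 11 tested. Over all genes tested, 10.4% passed as higher and 11.0% as lower. Psen2 (log2 ratio -0.30), Mmel1, a relative of neprilysin (-0.76, from 143 and 76 expected counts), and Hs3st1, a heparan sulfate enzyme (0.49), passed the test and had the largest ratios in their lists among genes that averaged 100 or more counts. In the myeloid receptor list that gene was the kinase Syk, at 0.18 from 189 and 195 expected counts, and it did not pass.

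Transcript shares were read from the deposited percentages for the 35 genes at 1 TPM or more in both mice. In 23 of the 35, 1 transcript took at least 50% in both mice, and in 32 the same transcript led in both. In 28 it also led in both libraries of the second quantification. The matching counts over all genes were not made, so no background share is given. Abca7, Inpp5d and Abi3 changed their leading transcript between mice: Abca7-202 took 72.8% and 47.9% and Abca7-203 took 27.2% and 52.1%. In the second quantification the change of Abca7 was absent, as Abca7-202 led in both mice with at least 54.4%. Abi3 changed there as well, from Abi3-202 in mouse 1 to Abi3-204 in mouse 2. Inpp5d-203 led in mouse 2 of both quantifications. In mouse 1 the leader was Inpp5d-207 in the first quantification and Inpp5d-210 in the second, so they did not give the same change. The dominant forms of Clu, Sorl1 and Echdc3 were stable, with Clu-201 at 90.6% and 92.9%, Sorl1-201 at 96.7% and 95.2% and Echdc3-201 at 95.7% and 91.1%.

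**Figure D3:**
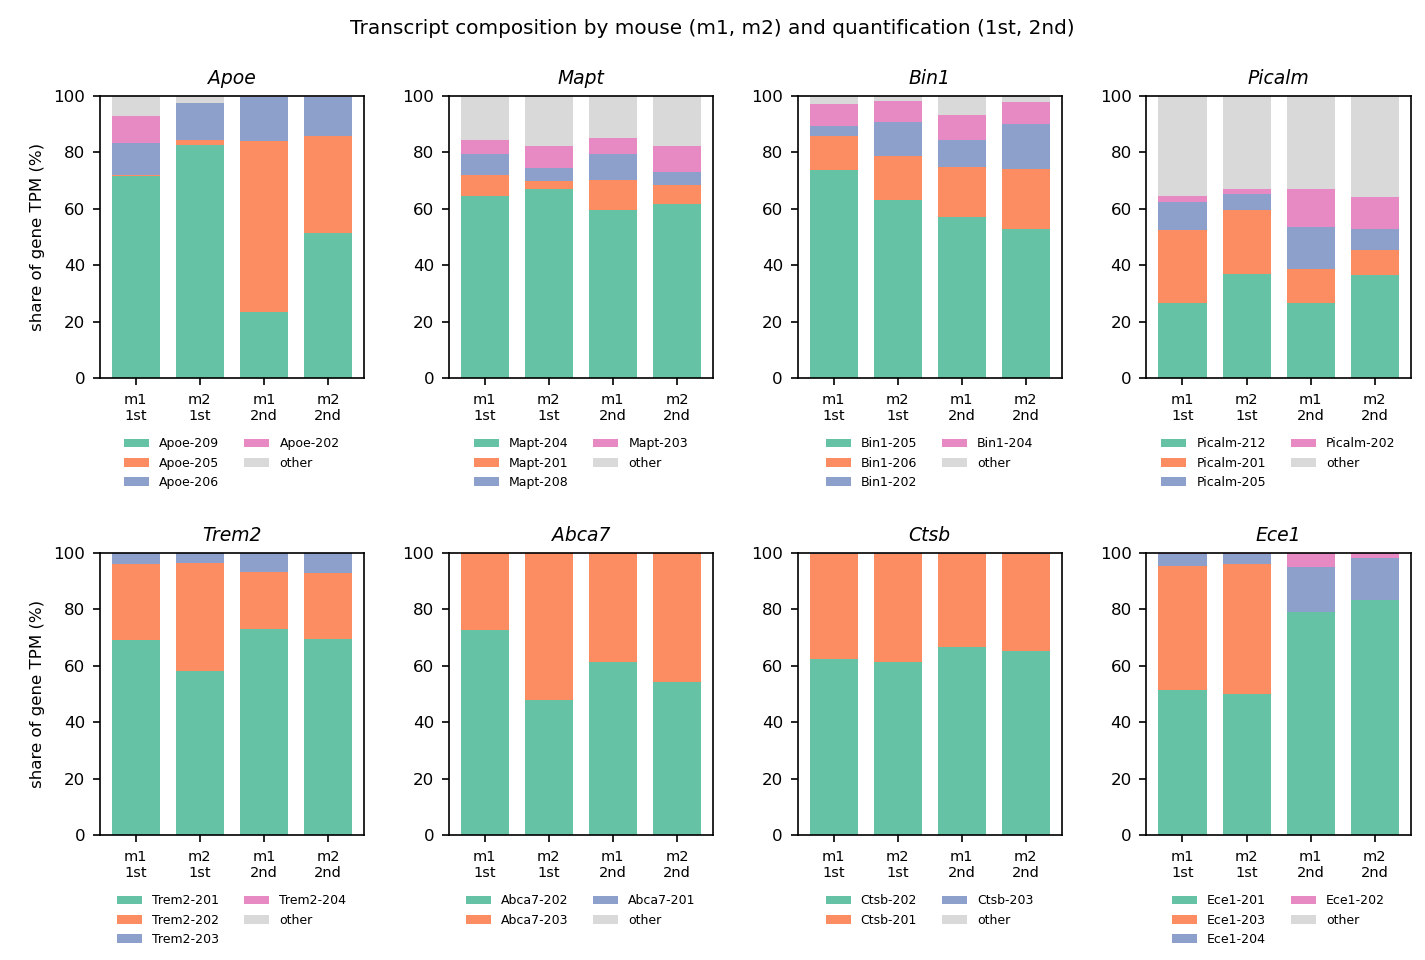
Share of each gene's TPM on its transcripts, for mouse 1 and mouse 2 (m1, m2) and the first and second quantification (1st, 2nd); grey is the sum of other transcripts. Mapt-204 leads in all 4 bars at 59.6% to 67.1%, whereas Apoe-205 is large in the second quantification only and Ece1-203 in the first only.

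Mapt-204, which led with 64.4% and 67.1% of Mapt TPM, encodes 372 codons and skips the cassette exons of the longer forms. Transcripts with a large exon of 711 or 759 bases, which marks the long tau of peripheral neurons, took 10.2% and 10.9% of the TPM of transcripts that span it, and 10.5% and 11.5% in the second quantification. They rested on 465 and 387 expected counts, against 8093 and 6612 for the skipping forms, and the longest form, Mapt-203, holds 749 codons. Near the start of the protein, the first of 2 exons of 87 bases was held by 29.4% and 26.2%, and the second by 17.3% and 12.9%. By counts these exons were rarer, with 766 and 515 against 7840 and 6528 for the first. An exon of 198 bases was held by 10.3% and 12.5%. Every annotated Mapt transcript that spans the 93-base exon of the second microtubule-binding repeat (mm10, chr11:104318157-104318249) holds it, so these tables cannot give a share without it.

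Bin1-205, with 410 codons, led at 73.7% and 63.0%, and at 57.0% and 52.9% in the second quantification. It was followed by Bin1-206 (434 codons) at 12.1% and 15.8% and Bin1-202 (477 codons) at 3.55% and 12.04%, a mean of 7.80% with an SD of 6.003% between mice. For Apoe, Apoe-209 took 71.8% and 82.5% in the first quantification, but 23.3% and 51.5% in the second, where Apoe-205 took 60.8% and 34.5%. Both encode 311 codons, and their coding sequences were not compared. Tyrobp-201 led at 70.1% and 87.5%, but Tyrobp-202 led in mouse 2 of the second quantification at 59.9%.

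The deposited percentage weighs each transcript per length, and short transcripts with few reads could take a large share. Over the 35 genes, transcripts under 1000 bases held a median of 2.80% of expected counts and 16.3% of TPM, and over all nuclear protein-coding genes at 1 TPM the medians were 2.17% and 11.5%. Ctsb-202, a retained-intron transcript of 801 bases without a coding sequence, took 62.6% and 61.2% of Ctsb TPM and 20.3% and 19.4% of its counts. Of its 801 bases, 91 lie outside the exons of the coding transcript Ctsb-201. Without transcripts under 1000 bases Ctsb would stand below Ctsd in both mice, as Ctsd keeps 408 and 424 TPM. With all transcripts Ctsb was below Ctsd in mouse 2 only (411 against 426 TPM). Ece1-203, of 172 bases, took 43.8% and 46.0% of Ece1 TPM from 118 and 105 expected counts, and 0% in the second quantification. All its bases lie within exons of Ece1-201. Tmem106b, Inpp5d, Lrp1, Cdk5 and Spi1 had 41.4% to 52.7% of their TPM on short transcripts.

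**Figure D4:**
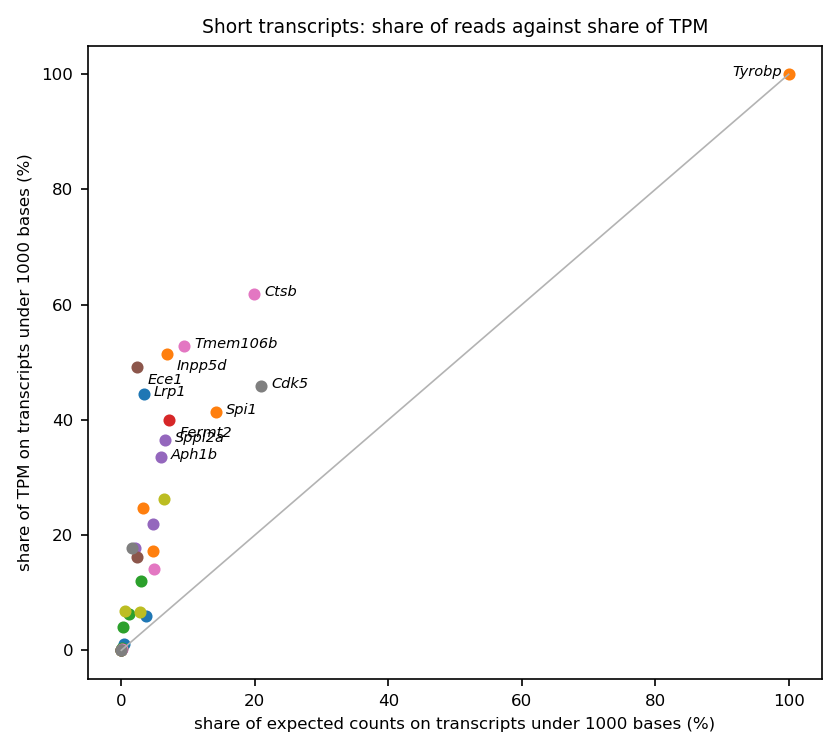
For each of the 35 genes, the share of expected counts (x axis) and of TPM (y axis) on transcripts under 1000 bases, mean of 2 mice; the line marks equal shares, and colours are those of the roles in the plot of levels. Ctsb (19.8% of counts, 61.9% of TPM), Tmem106b and Ece1 lie well above the line, and Tyrobp, whose annotated transcripts are all under 1000 bases, lies at 100% on both axes.

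Transcripts without a coding sequence held a median of 2.19% of the expected counts of the 35 genes and 2.96% over all nuclear protein-coding genes at 1 TPM. In the second quantification the median of the members was 1.32%. The share was highest for Abi3, at 58.1% and 35.5%, followed by Ctsb at 20.6% and 19.7%. Abi3-202, a processed transcript of 1816 bases, led in mouse 1 with 65.9%, and Abi3-204, of 319 bases, in mouse 2 with 35.6%. By counts, the coding transcript Abi3-201 led on average, with 84.1 and 127 expected counts.

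The 2 quantifications were compared on gene totals for genes that averaged 1 TPM or more. None of 35 members differed by 2-fold or more, against 4.78% of all 13524 genes compared, a share not matched for level. The median log2 ratio, second over first with a pseudocount of 0.1 TPM, was -0.09 for the members and -0.06 for all genes. The largest differences were those of Ece1 (-0.79), Lrp1 (-0.59), Aph1a (-0.40) and Inpp5d (-0.35), all lower in the second quantification. Ctsb, Mapt, Cdk5, Mef2c and Rin3 had log2 ratios that round to -0.01 or 0. Without transcripts under 1000 bases, Ece1 was at 47.5 and 48.3 TPM and Lrp1 at 34.6 and 36.6 TPM, below the second quantification (55.8 and 53.3 TPM, and 40.3 and 44.8 TPM).

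**Figure D5:**
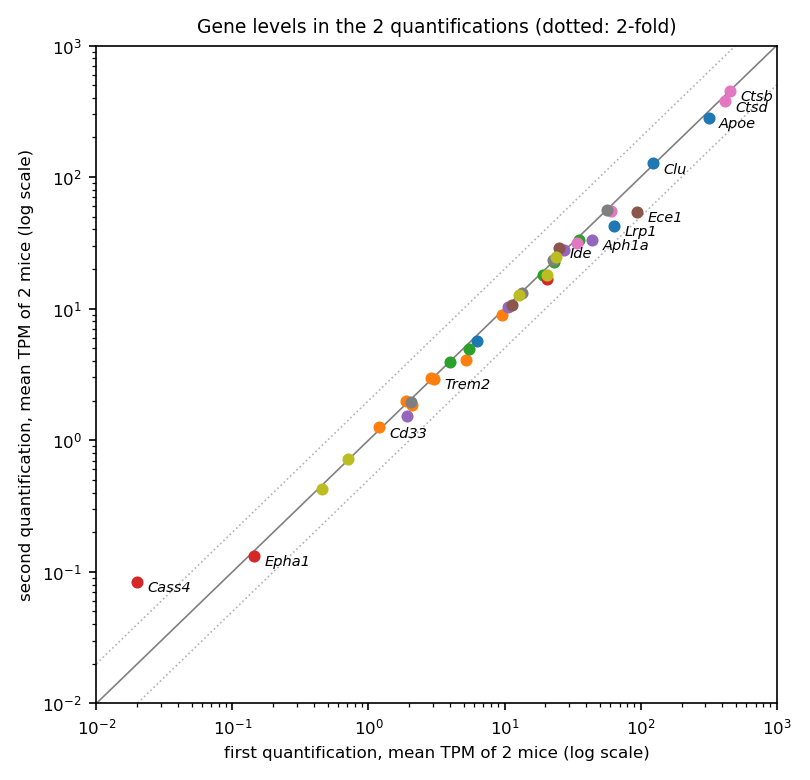
Mean TPM of 2 mice in the first quantification (x axis) and the second (y axis), both on log scales, for the genes above 0.01 TPM; the solid line marks equal values, the dotted lines 2-fold, and colours are those of the roles in the plot of levels. Every gene at 1 TPM or more lies between the dotted lines, with Ece1 and Lrp1 lowest; Cass4, at 2 counts per mouse, lies outside.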

How the data were processed

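Total RNA-seq of adrenal gland from 2 mice of 1 group was analysed. Per the file headers, the deposited gene and transcript tables hold expected counts (estimated, not always whole), TPM and FPKM, and the transcript tables hold each transcript's percent of its gene. They were made from transcriptome alignments on mm10 with GENCODE M21, per the deposited text files. The deposited posterior SD of a count was treated as a score. A further deposited transcript table holds estimated counts and TPM made from the reads and a transcript index (the second quantification). The names of aligner and quantifier, whether counting used strand, and how CAST alleles were handled, are not given in the sources read. ERCC spike-in and other rows that name no gene (0.503% and 0.527% of counts) were left out of library sizes and tests.

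Expected counts were normalised with TMM (edgeR 4.0.16, prior count 2) over genes with a mean of at least 10, and rounded for the exact binomial test (scipy 1.17.1). The test was tried on simulated counts that held counting error and set changes, but no other spread between libraries. Intervals are exact 95% intervals and, like floors of 3 counts, cover counting error only, since reads that carry no molecular identifier need not be separate molecules. All members are named. From each pathway list the text names the 2 genes of highest TPM and the largest ratio among genes averaging 100 or more counts, and others chosen after their values were seen; cell type markers and leading transcripts are named in part. The members and the lists were chosen with earlier results of these data known. Alternatives covered scaling, filters, prior count, pseudocount, FPKM, the second quantification and leaving out each mouse. Transcripts of 1000 bases or more, TPM ratios and count shares were added after seeing the data. No paired analysis applied, as there is 1 group.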

Additional observations from a re-analysis of the deposited data

How the results depend on the processing

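The median TPM of the members was 13.1 and became 42.3 when TPM was rescaled to nuclear protein-coding genes, 13.9 as FPKM and 9.49 from transcripts of 1000 bases or more. Leaving out a mouse gave 12.8 to 13.3. The number of members with 1 transcript at 50% or more fell from 23 to 5 at a threshold of 80%, where a stricter threshold must give fewer. The median share of counts without a coding sequence, 2.19%, was 1.32% in the second quantification, and 1.84% to 1.96% in single mice. The cause was not tested. The counts of members at 1 TPM, beyond counting error, 2-fold apart, or with a shared leading transcript stayed within 1.5 times of the reported ones under the alternatives run, with 14 to 16 members beyond counting error. The median log2 ratio lay between -0.04 and 0.03 on count scales and was 0.16 on TPM, so its sign depends on the scale. Of the log2 ratios of single members, Abca7 lost its call with total counts (-0.09) and in the second quantification (-0.12). Sppl2a (0.10), Ide (0.10) and Celf1 (0.13) gained one with total counts. On the TPM scale the sign of 4 called members turned: Abca7 0.034, Lrp1 0.145, Ece1 0.068 and Ctsd 0.055. Depth limits the 7 myeloid genes, with 89 to 444 expected counts per library, and the 5 genes below 1 TPM. No paired analysis was possible because there is only 1 group.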
